A study of Zea mays with 2 samples.

Results

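D-glycerate 3-kinase (GLYK, Zm00001d035737) is the maize gene described here, 1 of the 46430 features in the count matrices. It was taken by its identifier and not by its level, and its values are given in both libraries. The samples were 2 pools of leaf protoplasts, cells stripped of their walls, each from the distal 6 cm of leaf 2 of 6 untreated B73 seedlings, and the second pool came from plants grown at another time. Each pool gave a single droplet-based library of single-cell transcriptomes, so all comparisons are between kinds of cells within a library, with no second genotype or treatment. B73 is the inbred line of the maize reference genome.

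Photorespiration begins when Rubisco takes up oxygen in place of carbon dioxide, and it returns most of the carbon of the resulting phosphoglycolate to the Calvin cycle. The path runs through the chloroplast, the peroxisome and the mitochondrion. GLYK is its closing enzyme, which phosphorylates glycerate to phosphoglycerate inside the chloroplast. Maize is a C4 plant, in which mesophyll cells (MS) fix carbon with phosphoenolpyruvate carboxylase and bundle sheath cells (BS), a ring around each vein, hold Rubisco. In C4 leaves of this type most photorespiratory reactions are known from the BS, while glycerate kinase activity is known from MS chloroplasts.

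Every value below is a count of unique molecular identifiers (UMIs), tags that mark single transcript molecules, in barcodes, each of which stands for 1 droplet. A barcode was called BS when ME1 (NADP-dependent malic enzyme) and RBCS1 (a Rubisco small subunit) together held at least 10 UMIs and more than PEP1 (phosphoenolpyruvate carboxylase 1) and CAH1 (carbonic anhydrase 1). It was called MS when PEP1 and CAH1 held at least 10 UMIs and more than the other pair. Kept barcodes had over 1800 and under 7000 detected genes, under 4% chloroplast UMIs and under 0.75% mitochondrial UMIs, and low-gene barcodes had at most 1800 genes. GLYK took no part in these rules. Levels are UMIs per 10000 UMIs of the class with 95% exact Poisson intervals, which cover counting error only. The chemistry counts 1 tag per molecule near the 3′ end, so levels needed no scaling by gene length.

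There were 7340 barcodes in library 1, totalling 88081896 UMIs, and 6104 in library 2, totalling 41924567 UMIs. Of these 4035 and 3339 passed the filter, and 11 barcode sequences occurred in both libraries. BS barcodes numbered 248 in library 1 and 76 in library 2, of which 55 and 25 were kept. MS barcodes numbered 6318 and 5221, of which 3968 and 3308 were kept. The class names matched the other markers, but the study reported these marker genes as differing between the same cell types in these data. The match is therefore not independent evidence for the names. All 11 genes tested from a list of BS genes were higher in BS than in MS barcodes, and the 4 genes tested from an MS list were lower, while 11.1% of all genes tested were higher and 14.7% lower.

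GLYK was a well-detected transcript of MS cells. In kept MS cells it held 40746 UMIs in library 1, a level of 5.13 per 10000 UMIs (5.08 to 5.18), and 23363 UMIs in library 2, a level of 6.80 (6.71 to 6.89). It ranked 300 of 24167 detected genes in library 1 and 230 of 22580 in library 2 by its UMIs. At least 1 GLYK UMI was found in 98.8% of kept MS cells of library 1 and 97.9% of library 2. At least 5 UMIs were found in 82.5% (library 1) and 64.7% (library 2), at median depths of 19083 and 9448.5 UMIs per cell.

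Over single cells the level had a single broad peak. Per-cell levels averaged 5.05 ± 2.25 per 10000 UMIs in library 1 (SD over 3968 cells) and 6.61 ± 3.43 in library 2 (SD over 3308 cells). In library 1 the lowest cell was at 0, the median at 4.90 and the highest at 15.9. In library 2 the lowest was at 0, the median at 6.31 and the highest at 23.9. The middle 50% of cells lay between 3.49 and 6.44 in library 1 and between 4.15 and 8.69 in library 2. The cells of the libraries therefore overlapped over most of their range, and the level of library 2 lay above that of library 1 beyond counting error. That gap is between 2 single libraries and has no test.

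**Figure D1:**
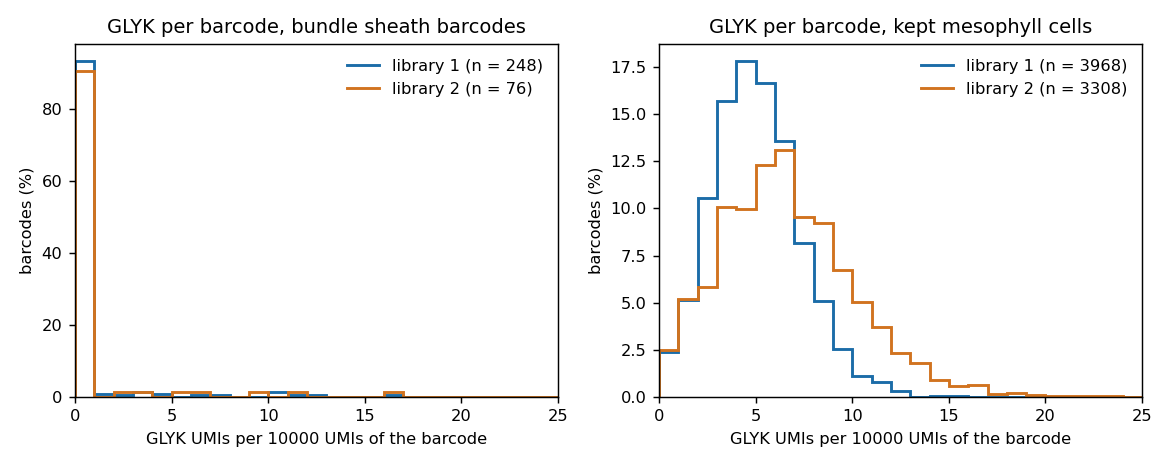
GLYK UMIs per 10000 UMIs of each barcode (x axis) against the percent of barcodes (y axis), for bundle sheath barcodes (left) and kept mesophyll cells (right), 1 line per library. Over 90% of the bundle sheath barcodes fall in the lowest bin, while mesophyll cells spread around medians of 4.90 (library 1) and 6.31 (library 2).

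At a fixed shallow depth the variance of GLYK counts was little above that of counting. After each kept MS cell was thinned to 3000 UMIs, the variance of GLYK counts over cells was 1.12 times its mean in library 1 (mean 1.47 UMIs) and 1.21 times its mean in library 2 (mean 2.00 UMIs). A variance equal to the mean is what counting alone gives. The same ratio was 4.68 and 4.90 for PEP1, 3.23 and 3.49 for CAH1, and 3.65 and 5.75 for PDK1 (pyruvate phosphate dikinase 1, which regenerates phosphoenolpyruvate). MDH6, the NADP-dependent malate dehydrogenase that makes malate from oxaloacetate, had 1.56 and 2.31, and PDRP1, the regulatory protein of the dikinase, had 1.25 and 1.64. GLN1, chloroplastic glutamine synthetase, which reassimilates the ammonia set free in photorespiration, had 1.58 and 1.98. GLN4, another glutamine synthetase, had 1.10 and 1.18. The ratio tends to be greater for genes with greater means, and these means differed, so it does not rank the genes by spread. At the low means of GLYK, moderate differences between cells add little to the ratio. The spread at full depth was not set against counting. GLYK was detected in 75.1% and 83.2% of the thinned cells.

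A few kept MS cells had no GLYK UMI, 48 in library 1 and 68 in library 2. They were shallower than the rest, with a median depth in library 1 of 8698.5 UMIs against 19156, and in library 2 of 6218.5 against 9515. Their median PEP1 and CAH1 share was 0.863% against 1.02% in library 1 and 0.567% against 1.08% in library 2. MDH6 stood at 11.4 per 10000 UMIs in the cells without GLYK and 21.9 in the others of library 1, and at 10.2 and 24.4 in library 2. PDK1 was also lower in them, at 41.3 against 52.4 in library 1 and 46.5 against 88.8 in library 2. At least 10 UMIs of ME1 and RBCS1 were present in 1 of the 48 cells and 0 of the 68, and in 3.52% and 1.67% of the other cells. The cells without GLYK had a median mitochondrial share of 0.256% against 0.124% in library 1 and 0.205% against 0.153% in library 2. Their median chloroplast share was 2.07% against 1.80% and 1.49% against 1.18%. These cells were picked by their GLYK count, so the values carry no test.

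The first comparison set BS against MS barcodes, low-gene barcodes included. GLYK held 35 of 2013874 UMIs in BS barcodes and 42974 of 85185950 UMIs in MS barcodes of library 1. In library 2 it held 12 of 539924 UMIs in BS barcodes and 26428 of 40212800 UMIs in MS barcodes. The levels were 0.174 per 10000 (0.121 to 0.242) in BS and 5.04 in MS barcodes of library 1, and 0.222 (0.115 to 0.388) in BS and 6.57 in MS barcodes of library 2. The log2 ratios within the libraries were -4.98 and -5.01. GLYK was lower in BS barcodes by edgeR's quasi-likelihood test on the 4 sums (log2 fold change -4.90 ± 0.35 SE, Benjamini-Hochberg adjusted p = 1.34e-41). The test called 4415 of 17112 genes in either direction, which is 25.8% of those tested, and 14.7% were called lower. The median over all genes tested was -0.20 on the same log2 scale. edgeR gave the shared prior variance full weight in this fit, so the SE and the p-value rest on a variance common to all genes and not on the spread of GLYK between the 2 libraries.

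Most other photorespiratory genes went the other way. Of 10 listed genes, 7 were higher in BS barcodes, where 11.1% of all genes tested were higher, and 3 were not called. Their median log2 fold change was 1.83. The list holds genes whose identifier and name the study gives together, and it is not the whole pathway. The study's tables listed them because they differed in some contrast of these same libraries, and GLYK was listed there as an MS gene, so neither the count nor the direction of GLYK is independent evidence.

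The 7 genes called spanned a wide range of differences. The highest were 2 genes of the mitochondrial glycine cleavage complex, which splits glycine and frees carbon dioxide. Its H1 protein (Zm00001d023699) held 4328 UMIs in BS and 296 in MS barcodes of library 1, and 1703 in BS and 83 in MS barcodes of library 2 (log2 fold change 9.86 ± 0.38 SE, edgeR adjusted p = 2.32e-139). Glycine decarboxylase1 (Zm00001d023437) had 720 UMIs in BS and 97 in MS barcodes of library 1, and 285 in BS and 32 in MS barcodes of library 2 (8.74 ± 0.40). The peroxisomal steps lay between. Catalase isozyme 2 (Zm00001d027511), which removes the hydrogen peroxide made with glyoxylate, stood at 3.50 ± 0.35, and glycolate oxidase1 (Zm00001d018810), which makes both, at 3.04 ± 0.28. Serine-glyoxylate aminotransferase (Zm00001d031349) stood at 1.95 ± 0.29.

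The 2 listed genes next to GLYK in the path were higher in BS barcodes as well. Hydroxypyruvate reductase (Zm00001d014919), which makes the glycerate that GLYK uses, held 227 UMIs in BS and 4618 in MS barcodes of library 1, and 152 in BS and 5038 in MS barcodes of library 2. Relative to the class totals as scaled by edgeR (TMM) this was a log2 fold change of 1.07 ± 0.30 SE (edgeR adjusted p = 0.00202). Without the library term the call of the reductase was lost (edgeR adjusted p = 0.269). Plastidal glycolate/glycerate translocator 1 (Zm00001d030127), which carries glycerate into the chloroplast, had 839 UMIs in BS and 10367 in MS barcodes of library 1, and 251 in BS and 5728 in MS barcodes of library 2 (1.70 ± 0.28, adjusted p = 3.64e-08). GLYK thus had 35 UMIs in BS barcodes of library 1 where the translocator had 839 and the reductase 227, while in MS barcodes GLYK had the most UMIs of the 3 genes in both libraries. The 3 genes that were not called were dihydrolipoyl dehydrogenase 2 (Zm00001d040721, 0.35, adjusted p = 0.525), an enzyme of the kind that serves the glycine cleavage complex as its L protein,, serine hydroxymethyltransferase 7 (Zm00001d012247, 0.15, adjusted p = 0.829) and GLN1 (-0.10, adjusted p = 0.860).

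**Figure D2:**
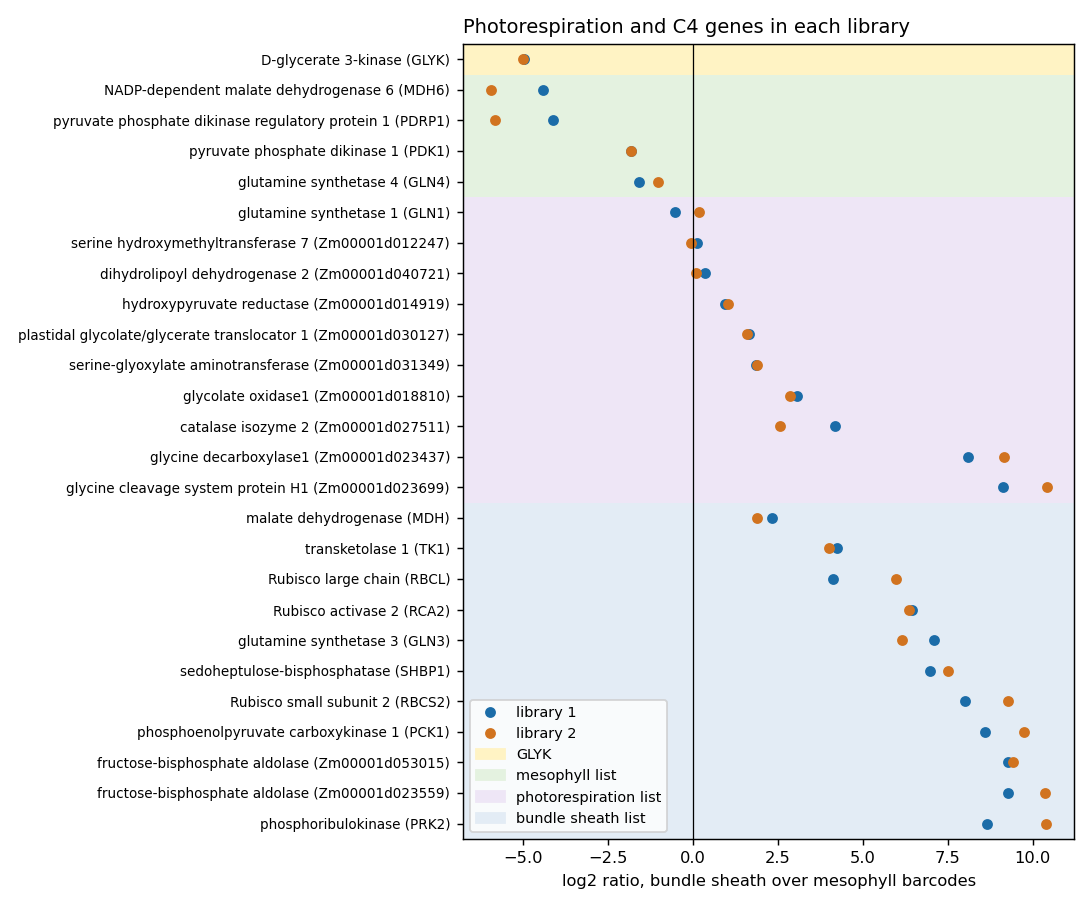
Log2 ratio of bundle sheath over mesophyll barcodes (x axis) for GLYK and the genes tested from 3 lists (rows, shaded by list), with 1 point per library. GLYK lies at -4.98 and -5.01, beside MDH6 and PDRP1, while 7 of the 10 photorespiration genes lie to the right of 0 and were called.

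GLYK sat among the C4 genes of MS cells. MDH6 had 221 UMIs in BS and 182721 in MS barcodes of library 1, and 22 in BS and 93558 in MS barcodes of library 2 (log2 fold change -4.97 ± 0.32 SE). PDRP1 stood at -4.74 ± 0.32, PDK1 at -1.74 ± 0.26 and GLN4 at -1.23 ± 0.30, so all 4 genes tested of the MS list were lower, with a median of -3.24. Without the library term GLN4 was not called (adjusted p = 0.105). The within-library ratios of GLYK differed by less than those of MDH6 (-4.41 and -5.96) and PDRP1 (-4.12 and -5.84). The GLYK ratio of library 2 rests on 12 BS UMIs, 5 of them in 1 barcode. In kept BS barcodes alone the libraries differed for GLYK too, at 1.87% and 0.371% of the level in kept MS cells. MDH6 stood there at 2.98% and 0.313%. The 11 BS genes ran from 2.18 for a malate dehydrogenase (MDH, Zm00001d034241) to 9.90 for PRK2, the phosphoribulokinase of the Calvin cycle, with a median of 7.33.

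The second question was whether GLYK followed the PEP1 and CAH1 share, the percent of a cell's UMIs from those 2 genes. Kept MS cells of each library were divided into 5 equal groups (quintiles) by that share, from a median share of 0.644% to 1.47% in library 1 and from 0.569% to 1.68% in library 2. GLYK stood at 4.10, 5.01, 5.26, 5.57 and 5.71 per 10000 UMIs from the lowest to the highest quintile of library 1. In library 2 it stood at 4.79, 6.19, 7.10, 7.54 and 8.14. Each step up the share was a step up in GLYK in both libraries, and the widest step was between the lowest quintile and the next. The Poisson intervals of neighbouring quintiles overlapped only between the 2 highest of library 1. Cells without GLYK were most frequent in the lowest quintile, with 21 of its 793 cells (library 1) and 49 of its 661 cells (library 2).

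In the highest quintile GLYK held 8177 UMIs in library 1 and 5594 in library 2, against 6272 and 2981 in the lowest. GLYK was higher in the highest quintile (log2 fold change 0.72 ± 0.17 SE, edgeR adjusted p = 0.0111, n = 4 sums), with log2 ratios of 0.59 and 0.88 within the libraries. The test called 1742 of 15450 genes, or 11.3%, and 3.94% were called higher. The call was lost within the middle 50% of cells by depth (0.68, adjusted p = 0.0599), with failing MS barcodes added (0.46, adjusted p = 0.592) and without the library term (0.75, adjusted p = 0.9993).

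Other genes of MS cells moved with the share too. PDK1 rose by 1.33 on the log2 scale, MDH6 by 0.70 and PDRP1 by 0.56 (edgeR adjusted p = 1.22e-04, 0.0148 and 0.0445), and GLN4 stood at 0.24 (adjusted p = 0.433). At middle depth PDK1 was called (adjusted p = 0.00367) and MDH6 (0.103) and PDRP1 (0.142) were not, and DESeq2 did not call PDRP1 (0.0623). With failing MS barcodes added PDK1 was called (0.00163) and MDH6 (0.529) and PDRP1 (0.524) were not. Of the 10 photorespiration genes 3 rose and 7 were not called, with a median of 0.22 against 0.03 over all genes tested. The 3 were GLN1 (0.95, adjusted p = 0.00357), the glycolate/glycerate translocator Zm00001d030127 (0.85, adjusted p = 0.00656) and catalase isozyme 2 Zm00001d027511 (0.79, adjusted p = 0.0272). The catalase was not called at middle depth (adjusted p = 0.234) or by DESeq2 (adjusted p = 0.155), and none of the 3 was called with failing MS barcodes added (adjusted p = 0.327 for GLN1, 0.0706 for the translocator and 0.145 for the catalase). Without the library term no gene of either list was called (adjusted p = 0.9993 for each of those that rose), with 1 MS gene and 2 photorespiration genes at an unadjusted p under 0.05. Hydroxypyruvate reductase stood at 0.15 (adjusted p = 0.681). None of 11 BS genes passed between quintiles of kept cells in edgeR's or DESeq2's test, while 3 had an unadjusted p under 0.05 in edgeR's and 2 in DESeq2's. Tertiles called 2 BS genes higher (RBCS1 and TK1), middle depth 1 lower (RBCS2) and failing MS barcodes added 4 higher.

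**Figure D3:**
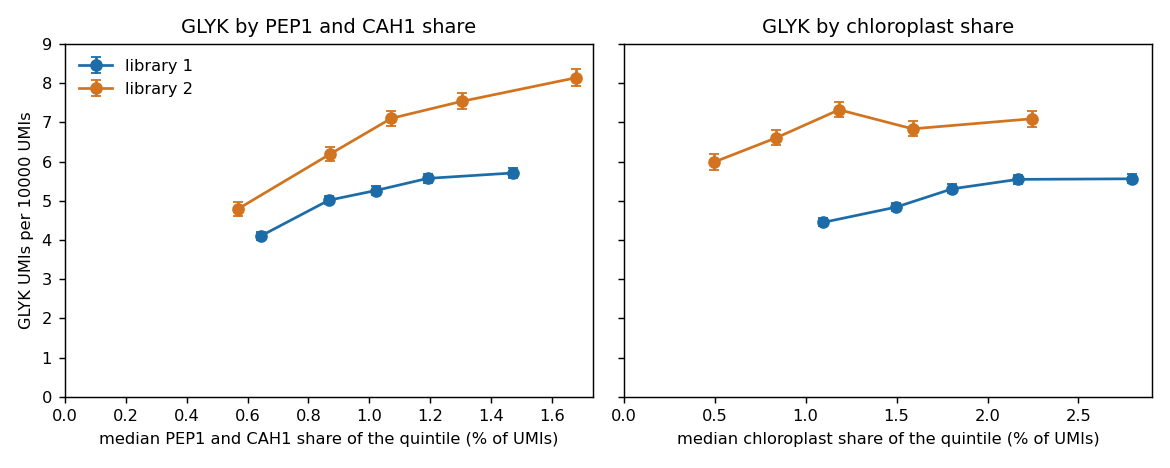
GLYK UMIs per 10000 UMIs (y axis) in quintiles of kept mesophyll cells, against the median PEP1 and CAH1 share (left) or chloroplast share (right) of each quintile in percent of UMIs (x axis), 1 line per library. Bars are 95% exact Poisson intervals. GLYK steps up over all 5 quintiles of the PEP1 and CAH1 share in both libraries, from 4.10 to 5.71 and from 4.79 to 8.14, while over the chloroplast share library 2 is highest in the middle quintile at 7.32.

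Over single cells the relation to the share was weak. The Spearman correlation between the GLYK level and the share was 0.227 over 3968 cells of library 1 and 0.362 over 3308 cells of library 2. Both measures share the cell's library and its total UMIs, so the values are a description. With PEP1, CAH1 and the chloroplast genes left out of the total, the Spearman correlation was 0.235 and 0.369. In cells thinned to 3000 UMIs it was 0.134 and 0.228, and in cells of the middle 50% of depth it was 0.236 and 0.323.

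The third question was the chloroplast share, the percent of UMIs from the 157 features of the chloroplast genome. Its quintiles ran from a median of 1.09% to 2.79% in library 1 and from 0.496% to 2.24% in library 2. GLYK stood at 4.45, 4.84, 5.30, 5.55 and 5.56 per 10000 UMIs from the lowest to the highest quintile of library 1. In library 2 it stood at 5.99, 6.61, 7.32, 6.84 and 7.09. The level thus levelled off over the upper quintiles of library 1, and in library 2 the middle quintile was the highest. The Spearman correlation over cells was 0.154 and 0.0884, and 0.0709 and 0.0425 after thinning.

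No change of GLYK was called between the ends of the chloroplast share. GLYK had 8344 UMIs in the highest quintile and 7222 in the lowest quintile of library 1, and 4847 and 3579 in those of library 2. The log2 fold change was 0.26 ± 0.28 SE (edgeR adjusted p = 0.645), with 0.46 and 0.11 within the libraries. The direction reversed when failing MS barcodes, which had a lower median depth, were added (-0.18, edgeR adjusted p = 0.818). The test called 2 of 15375 genes, 0.013%, with 2966 at an unadjusted p under 0.05. Both were lower, Zm00001d019565 (an aquaporin in the study's tables, -3.02) and Zm00001d029099 (-6.40), and they were named after their values were seen. With edgeR no gene of the photorespiration list (9 tested), the MS list (6 tested) or the BS list (11 tested) was called, and 2, 0 and 6 of them had an unadjusted p under 0.05. DESeq2 called 0, 0 and 1 of them. Other edgeR fits also called list members. With at least 10 UMIs in every sum, and at middle depth, catalase isozyme 2 Zm00001d027511 (-0.96 and -0.98) and 4 BS genes were called. Of those 4 BS genes 1 was higher and 3 were lower in each fit. RLE scaling or no filter called 1 BS gene, RBCL, as higher. Within either library the 2 shares were themselves weakly related (Spearman correlation 0.177 in library 1 and -0.0438 in library 2).

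The trace of GLYK in BS barcodes was small and differed between kept and low-gene barcodes. Kept BS barcodes had 14 GLYK UMIs in library 1, a level of 0.0958 per 10000 (0.0524 to 0.161), against 5.13 in kept MS cells. In library 2 they had 1 UMI, a level of 0.0252 (0.000639 to 0.141), against 6.80 in kept MS cells. Low-gene BS barcodes had 14 UMIs in 170 barcodes of library 1, a level of 0.494 (0.270 to 0.830), and 11 UMIs in 46 barcodes of library 2, a level of 1.12 (0.561 to 2.01). Of the 11 UMIs in library 2, 5 lay in 1 barcode. Low-gene MS barcodes stood at 3.54 in library 1 and 5.19 in library 2, below the kept MS cells. With kept barcodes alone in both classes, the log2 fold change of BS over MS was -6.21.

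**Figure D4:**
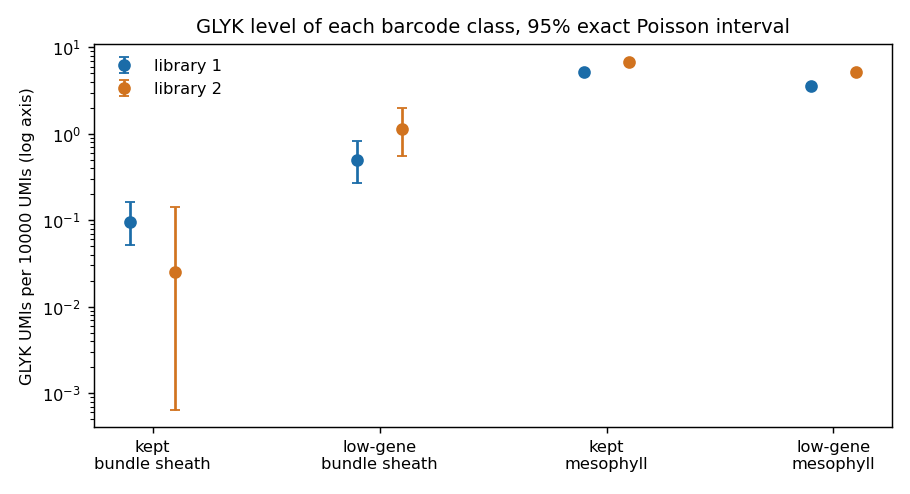
GLYK UMIs per 10000 UMIs (y axis, log scale) in 4 classes of barcodes, 1 point per library, with 95% exact Poisson intervals. Low-gene bundle sheath barcodes, at 0.494 and 1.12, lie above kept ones, at 0.0958 and 0.0252, and below both mesophyll classes.

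GLYK was 5.16 times as high in low-gene as in kept BS barcodes of library 1 (95% exact conditional binomial interval 2.28 to 11.7) and 44.5 times in library 2 (6.47 to 1916, with 1 UMI in kept barcodes). PEP1 and CAH1 together were 5.56 times (4.94 to 6.24) and 17.4 times (12.1 to 25.8) as high. The 2 libraries thus both had more of the MS markers in low-gene BS barcodes. The median depth of low-gene BS barcodes was 986.5 UMIs in library 1 and 1818 in library 2, and that of kept ones was 24277 and 13747.

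The markers of MS cells left a trace in BS barcodes as well. As a percent of the level in MS barcodes of the same filter class, GLYK in kept BS barcodes stood at 1.87% (1.02 to 3.13) in library 1 and 0.371% (0.00940 to 2.07) in library 2. MDH6 stood at 2.98% and 0.313%, PDRP1 at 3.22% and 0.385%, CAH1 at 3.45% and 0.807%, and PEP1 at 4.20% and 0.810%. The interval of GLYK held the values of all 4 in library 2, and in library 1 that of MDH6 alone. PDK1 stood apart at 23.3% and 24.9%. In low-gene BS barcodes GLYK stood at 14.0% (7.61 to 23.5) and 21.7% (10.8 to 38.8), beside 14.1% and 8.21% for MDH6, 12.2% and 9.24% for PDRP1, 11.3% and 12.0% for CAH1, and 10.8% and 12.0% for PEP1. The low-gene interval of GLYK held the values of all 4 in library 1, and in library 2 those of CAH1 and PEP1 but not of MDH6 and PDRP1. In library 2 the low-gene value of GLYK rests on 11 UMIs, 5 of them in 1 barcode. PEP1 and CAH1 also set the BS class, which caps their share. What part RNA from MS cells has in the GLYK trace of BS barcodes was not tested.

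**Figure D5:**
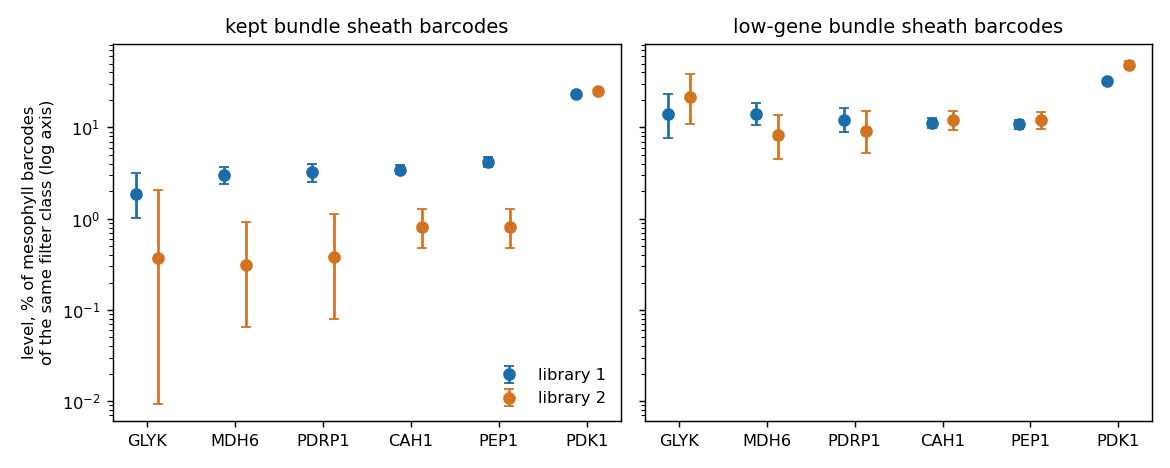
Level in bundle sheath barcodes as a percent of that in mesophyll barcodes of the same filter class (y axis, log scale), for GLYK and 5 mesophyll genes, in kept (left) and low-gene (right) barcodes, with 95% counting intervals. GLYK lies at 1.87% and 0.371% in kept and at 14.0% and 21.7% in low-gene barcodes, below PDK1 at 23.3% and 24.9% in kept and 32.2% and 48.7% in low-gene barcodes.

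Set against MDH6 within the same barcodes, GLYK had 15.8 UMIs per 100 of MDH6 in BS barcodes of library 1 (10.8 to 22.7) and 23.5 in MS barcodes. In library 2 it had 54.5 (24.6 to 115) in BS and 28.2 in MS barcodes. The interval in BS barcodes lay below the MS value in library 1 and held it in library 2. Within filter classes the picture differed. In library 1 the ratio was 14.7 (7.76 to 25.96) in kept BS and 23.5 in kept MS barcodes, and 24.1 (12.4 to 43.8) in low-gene BS and 24.4 in low-gene MS barcodes, so both intervals held the MS value. In library 2 it was 78.6 (32.3 to 186) in low-gene BS and 29.8 in low-gene MS barcodes, above the MS value. That ratio rests on 11 GLYK and 14 MDH6 UMIs, and 5 of the 11 lay in 1 barcode, which the interval does not take into account. Kept BS barcodes of library 2 had too few UMIs to tell, 1 of GLYK and 3 of MDH6.

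Single BS barcodes rarely held more than 1 GLYK UMI. GLYK was found in 26 of 248 BS barcodes of library 1 and 8 of 76 of library 2, or 10.5% in each (exact binomial intervals 6.96 to 14.98 and 4.66 to 19.7). In MS barcodes it was found in 78.8% and 85.8%, at median depths of 13405 and 6833 UMIs, against 2201 and 3479 in BS barcodes. Of the BS barcodes with GLYK, 21 in library 1 and 7 in library 2 held a single UMI. The other 5 and 1 held up to 5 UMIs each and had 17 to 214 UMIs (library 1) and 31 UMIs (library 2) of PEP1 and CAH1, where the median BS barcode had 3 and 2. The BS barcodes with no UMI of PEP1 or CAH1, 25 in library 1 and 16 in library 2, held 2 and 0 GLYK UMIs.

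The GLYK level also differed with the PEP1 and CAH1 share of BS barcodes. Those with PEP1 and CAH1 at most 10% of the UMIs of the 4 marker genes stood at 0.0946 per 10000 (0.0551 to 0.151, 152 barcodes) in library 1 and 0.135 (0.0545 to 0.279, 62 barcodes) in library 2. Those over 10% stood at 0.831 (0.493 to 1.31, 96 barcodes) and 2.15 (0.698 to 5.02, 14 barcodes). In library 2 all 5 GLYK UMIs over 10% lay in 1 barcode, so that level rests on a single barcode. GLYK was found in 12.5% of barcodes over 10% and 9.21% of those at most 10% in library 1. In library 2 the order was the other way, at 7.14% and 11.3%. The split also followed depth, with medians of 5195 UMIs at most 10% and 829.5 over 10% in library 1, and of 5214 and 1488 in library 2, and the part of depth was not tested. With the barcodes at most 10% alone the log2 fold change of BS over MS was -5.67. SWEET13 sucrose transporters are the study's markers for some of the BS cells. BS barcodes with at least 3 SWEET13 UMIs had 11 GLYK UMIs in library 1 (77 barcodes, 0.156 per 10000) and 2 in library 2 (26 barcodes, 0.0778). The BS barcodes with fewer had 24 (171 barcodes, 0.183) and 10 (50 barcodes, 0.354), and their counting intervals overlapped in each library.

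The genes whose counts ran most like GLYK over kept MS cells were taken by rank. The Spearman correlation was computed in cells thinned to 3000 UMIs for 1608 genes detected in at least 50% of kept MS cells of each library, and genes were ordered by the lower value of the 2 libraries. The first was a ferredoxin (Zm00001d042049), an electron carrier, at 0.171 over 3968 cells and 0.189 over 3308. MDH6 followed at 0.169 and 0.183. Glyceraldehyde phosphate dehydrogenase B1 (Zm00001d027488) stood at 0.146 and 0.225. A chloroplastic triose phosphate/phosphate translocator (Zm00001d009028) stood at 0.139 and 0.156, and carbonic anhydrase3 (Zm00001d044096) at 0.172 and 0.133. The middle 90% of all genes lay between -0.0546 and 0.0725 in library 1 and between -0.0704 and 0.0815 in library 2. All these values are low, and they share library and depth. Photorespiratory genes were not among the 5, and those of the list below the 50% detection limit could not be ranked. GLN1 ranked 26 of the 1608, at 0.0842 and 0.101, above the middle 90% of genes in both libraries. The glycolate/glycerate translocator stood at 0.0214 and 0.0545, and hydroxypyruvate reductase at -0.00485 and 0.0443. Their mean counts in the thinned cells were low, 0.355 and 0.424 UMIs for the translocator and 0.164 and 0.351 for the reductase. MDH6 had 6.33 and 6.87. Low counts weaken such a correlation, so these 2 low values do not show a lack of relation to GLYK.

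Between BS and MS barcodes these genes did not all go with GLYK. The ferredoxin Zm00001d042049 (log2 fold change -4.98, edgeR adjusted p = 5.18e-54), carbonic anhydrase3 Zm00001d044096 (-5.09, adjusted p = 5.32e-56) and glyceraldehyde phosphate dehydrogenase B1 Zm00001d027488 (-2.63, adjusted p = 8.12e-21) were lower in BS barcodes. The triose phosphate/phosphate translocator Zm00001d009028 was not called (0.16, adjusted p = 0.730). Carbonic anhydrase3 and CAH1 are close relatives, so reads shared by the 2 genes may affect the counts of both.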

How the data were processed

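The deposited values were raw UMI counts per gene and barcode. The authors made them with Cell Ranger (3.1.0 in the file headers), which aligned reads with STAR to B73 RefGen_v4 with its Ensembl annotation and called cells. The 2 libraries were not pooled. Gene names came only from the study, because 0 of 44146 maize identifiers matched the reference table of another assembly, and no sequence is shown.

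UMIs were summed per library and class, since cells are not replicates, and the 4 sums were tested with edgeR 4.0.16 in R 4.3.3 (quasi-likelihood, TMM, filterByExpr, library as a term). Benjamini-Hochberg adjustment ran over all genes tested, with a threshold of 0.05. The genes that formed the classes were not tested. This left 1 residual degree of freedom, and SEs were derived from the size of the log2 fold change over the root of its F statistic. Both classes of a comparison came from the same library, which is the source of the pairing. Ratios within a library are differences of log2 CPM with a prior count of 2. The pools are separate plantings, but the p-values of the main edgeR fits rest wholly or mostly on a variance shared across genes. They do not measure the spread of 1 gene between the 2 pools alone. The shared variance had full weight for BS against MS barcodes. It weighed 16.2 degrees of freedom for the PEP1 and CAH1 share and 7.37 for the chloroplast share, against the 1 residual. DESeq2 1.42.0 and the other alternatives are given in the closing section. Thinning drew 3000 UMIs per cell at random without replacement, and barcodes with fewer were left out. No doublet caller was run.

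Named genes were GLYK, 3 lists (photorespiration, MS, BS) and the 5 genes most like GLYK. The gene, the lists and the tests were chosen with earlier results of these data known. How reads shared by close paralogs were counted was not checked.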

Additional observations from a re-analysis of the deposited data

How the results depend on the processing

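GLYK was lower in BS than in MS barcodes in all 11 fits, between -6.21 and -4.88 on the log2 scale (edgeR or DESeq2 adjusted p from 2.38e-49 to 9.31e-05). Leaving out either library gave -5.01 to -4.98, 0.59 to 0.88 for the PEP1 and CAH1 share and 0.11 to 0.46 for the chloroplast share, as values with no test. The rise with the PEP1 and CAH1 share stayed positive in all 10 fits and lost its call in 3 of them. These were the fit with no replicate block (0.75, adjusted p = 0.9993), cells of middle depth (0.68, adjusted p = 0.0599) and failing MS barcodes added (0.46, adjusted p = 0.592). The last of these also set shallower against deeper barcodes. The chloroplast comparison was not called in any of 10 fits, and it reversed with failing MS barcodes added (-0.18). In library 1 that fit set 1264 barcodes with 3042765 UMIs against 1263 with 24238671. The cause of the reversal was not tested.

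Counts of genes called moved more. Between BS and MS barcodes 4415 became 2684 with DESeq2, 2371 with at least 10 UMIs in every sum (fewer genes tested) and 2016 with no replicate block. For the PEP1 and CAH1 share 1742 became 907 with DESeq2, 844 at middle depth, 554 with failing barcodes added and 0 in edgeR with no replicate block (740 at an unadjusted p under 0.05). For the chloroplast share 2 became 354 with DESeq2, 285 with RLE scaling, 455 with no filter, 807 with at least 10 UMIs, 1221 at middle depth and 1 with the chloroplast genes out of the totals. edgeR called 0 with tertiles in place of quintiles (2831 at an unadjusted p under 0.05), with failing barcodes added (2781) and with no replicate block (817).

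Thinning to 3000 UMIs lowered the share of barcodes with GLYK to 75.1% and 83.2% in kept MS cells and to 6.54% and 4.65% in BS barcodes, and the Spearman correlation to 0.228 for the PEP1 and CAH1 share in library 2 and to 0.0709 for the chloroplast share in library 1. The BS trace rests on 35 and 12 UMIs.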

Other observations

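Some barcodes fell in neither class. Of the kept ones, 12 in library 1 had 2 GLYK UMIs, a level of 0.117 per 10000 (0.0142 to 0.422), and 6 in library 2 had 1 GLYK UMI, a level of 0.192 (0.00485 to 1.07). The 762 and 801 others that failed the filter stood at 2.08 (1.76 to 2.45) and 1.19 (0.995 to 1.41), at median depths of 691.5 and 1021 UMIs. Barcodes with at least 10 UMIs of both marker pairs numbered 160 in library 1 and 60 in library 2, and 139 and 54 of them were kept MS cells.

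In library 1, 31 kept MS cells held at least 3 UMIs of nicotianamine synthase genes, which make a metal chelator used in iron transport. GLYK stood at 5.99 per 10000 (5.43 to 6.60) in them and 5.12 (5.07 to 5.17) in the other kept MS cells. Library 2 had 1 such cell.

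The GLYK level was compared with depth too. Over quintiles of UMIs per cell it stood at 4.81 in the lowest and 5.31 in the highest quintile of library 1, and at 6.12 and 7.37 in those of library 2. The Spearman correlation with UMIs per cell was 0.112 and 0.157, and 0.0296 and 0.0786 in cells thinned to 3000 UMIs. With the mitochondrial share it was 0.00858 and -0.0311.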
